A study of Mus musculus with 4 samples.

Results

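The 85 genes described here are the cytosolic chaperones and heat shock proteins of mouse CD4+ T cells with and without Pdk4, a kinase that switches off pyruvate dehydrogenase in mitochondria. They were chosen by a rule on symbols from the 23238 gene symbols of the count tables, with earlier results of these data known. The choice took the Hsp70, Hsp110, Hsp90 and small heat shock protein families, the chaperonins, the J proteins of classes A, B and C, Hsf1, Hsf2, Stip1, Ahsa1 and Bag3. Hspa5, Hspa9, Hsp90b1 and Hspbap1 were left out. Not all of the 85 are cytosolic: Hspd1, Hspe1, Dnaja3, Dnajc15 and Dnajc19 act in mitochondria, and Dnajb9, Dnajb11, Dnajc3 and Dnajc10 in the endoplasmic reticulum.

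Cells labelled PDK4 KO gave 2 libraries (KO replicates 1 and 2), which were compared with 2 libraries of cells labelled WT (WT replicates 1 and 2). All were given as C57BL/6j, and the labels do not name the Pdk4 allele or say whether libraries of a genotype came from separate animals or cultures. If they did not, the p-values below reflect technical spread. In both genotypes, naive cells from spleen and lymph nodes were bead-selected (MACS) and then activated through CD3 and CD28, with IL-2 added, for 48 hours. The RNA was read from the 3′ ends of transcripts (Lexogen QuantSeq), so counts do not scale with transcript length and levels may be compared between genes. Levels are CPM, counts scaled to a common library total, after TMM scaling, a correction for differences in RNA composition between libraries.

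Chaperones bind unfolded or partly folded proteins and help them reach or keep their native shape. Hsp70 proteins hold short exposed stretches of a client, J proteins deliver clients to them and trigger ATP hydrolysis, and exchange factors such as Hsp110 reset the cycle. Hsp90 acts later on kinases, receptors and other near-native clients, with Stip1 passing clients from Hsp70 and Ahsa1 stimulating its ATPase. The ring-shaped chaperonin CCT (also TRiC) folds actin, tubulin and other cytosolic proteins in a closed chamber. Heat shock factor Hsf1 induces many of these genes under protein stress by binding inverted repeats of GAA in their promoters, and T cells raise protein synthesis and chaperone content after activation.

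The promoters of the genes on which the results turn are shown to let that motif be seen. RefSeq promoter windows on GRCm38.p6, from 250 bases before to 50 after a start site, were found for 70 of the 85 genes. Hsp90aa1, Hsp90ab1, Hspa8 and Hsf1 are among the genes without a window. The 2-unit motif was GAANNTTC or TTCNNGAA, and the 3-unit motif GAANNTTCNNGAA or TTCNNGAANNTTC. Each 2-unit form reads the same on both strands, the 3-unit forms are each other's reverse complement, and a 3-unit match contains overlapping 2-unit matches. At least 1 window of 21 of the 70 genes held a 2-unit match (30.0%), as did 17.0% of the 27025 genes with a window. A 3-unit match was in 4 of the 70 genes (5.71%), namely Hspd1, Hspe1, Hsph1 and Dnajb6, against 0.662% of all genes. Windows are written 5′ to 3′ in the direction of the gene, with matches in capitals. The Hspe1 window, chr1:55087898-55088197 on the plus strand, takes in the 5′ end of Hspd1, which is transcribed in the other direction, and holds a run of overlapping matches that an Hspd1 window shares. The Hsph1 window is chr5:149636266-149636565 on the minus strand. That of Hspa1a, the heat-inducible Hsp70, is chr17:34972107-34972406 on the minus strand. Tcp1, the only member that passed the test between genotypes, had no match in chr17:12916079-12916378 on the plus strand, which says only that these letters are not in that window.
Hspe1: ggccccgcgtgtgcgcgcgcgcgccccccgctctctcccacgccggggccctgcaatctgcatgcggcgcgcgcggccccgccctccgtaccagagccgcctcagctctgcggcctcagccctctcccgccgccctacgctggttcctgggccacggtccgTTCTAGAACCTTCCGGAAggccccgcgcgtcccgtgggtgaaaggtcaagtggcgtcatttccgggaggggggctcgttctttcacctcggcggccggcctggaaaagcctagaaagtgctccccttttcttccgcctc
Hsph1: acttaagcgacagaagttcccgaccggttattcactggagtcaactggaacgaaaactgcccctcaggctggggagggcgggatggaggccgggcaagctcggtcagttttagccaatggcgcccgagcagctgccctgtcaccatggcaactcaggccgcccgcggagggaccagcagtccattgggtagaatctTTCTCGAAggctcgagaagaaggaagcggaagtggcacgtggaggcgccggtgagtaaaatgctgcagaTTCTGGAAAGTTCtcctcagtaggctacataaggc
Hspa1a: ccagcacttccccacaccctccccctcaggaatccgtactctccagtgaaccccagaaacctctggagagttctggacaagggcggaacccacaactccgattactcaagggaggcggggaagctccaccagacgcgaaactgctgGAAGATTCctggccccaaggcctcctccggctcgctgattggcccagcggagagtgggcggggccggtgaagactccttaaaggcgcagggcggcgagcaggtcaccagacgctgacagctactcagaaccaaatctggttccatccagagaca
Tcp1: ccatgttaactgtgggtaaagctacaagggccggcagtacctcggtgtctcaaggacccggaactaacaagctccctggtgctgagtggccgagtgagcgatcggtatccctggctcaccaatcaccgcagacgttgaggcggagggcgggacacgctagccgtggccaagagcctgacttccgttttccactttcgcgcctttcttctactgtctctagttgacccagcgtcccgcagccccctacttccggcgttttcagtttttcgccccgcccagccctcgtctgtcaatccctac

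Total counts were 9739624 and 9104413 in the KO libraries and 8837810 and 9575879 in the WT libraries. Pdk4 had 0 and 2 counts in KO and 1 and 0 in WT, at or under a floor of 3 counts, and so did not check the labels. The T cell markers Cd4, Cd3d, Cd3e and Lck were detected in all 4 libraries, and of the 8 T cell markers listed, Cd5 rose and 7 did not pass the test. Cd5 lost its call with upper quartile scaling (adjusted p = 0.0716) and without WT replicate 2 (0.267), KO replicate 1 (0.0768) or KO replicate 2 (0.332). Of the markers of other cells, those of B cells moved most with genotype. Of 14 tested B cell markers, 11 fell (10 by DESeq2 and 9 by limma-voom), with a summed level of 51.0 and 52.6 CPM in KO and 172 and 177 CPM in WT. Of the 11, Blnk lost its call in 8 of 12 alternatives and Spib in 4 of 12. Ms4a1 and Pou2af1 each lost theirs without WT replicate 2, at log2 fold changes of -3.19 and -1.27. The marker Cd22 was at 0 in both KO libraries and Pax5 in all 4. Among 14 tested markers of CD8 and natural killer cells, Gzma and Klrc1 fell (2 genes), with sums of 439 and 394 CPM in KO and 618 and 632 CPM in WT. Gzma had 76.1 and 51.2 CPM in KO and 219 and 219 CPM in WT, the larger part of that difference, and kept its call in all 13 alternatives. Klrc1 lost its call without WT replicate 2 (adjusted p = 0.227) or KO replicate 1 (0.254). Of the 14 tested, 13 had a negative log2 fold change and 1, Eomes, a positive one (0.24, edgeR adjusted p = 0.698). Gzmk was at 0 in all libraries. Of 6 tested myeloid markers, Fcer1g fell, though not without KO replicate 1 (adjusted p = 0.121), with sums of 14.8 and 29.1 CPM in KO and 39.7 and 32.2 CPM in WT. The other 5 myeloid markers did not pass, and of the 6, 4 had a negative and 2 a positive log2 fold change. The 2 were S100a8 (0.98, edgeR adjusted p = 0.612) and S100a9 (0.69, 0.808). The part of these other cells in the values below was not tested. In bulk RNA, fewer cells of a type and less RNA per cell cannot be told apart.

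The chaperone genes as a group were at close to the same level in both genotypes, and 1 of them, the CCT subunit gene Tcp1, passed the test. Their summed level was 13029 and 12951 CPM in KO and 12871 and 13655 CPM in WT, a log2 ratio of -0.03. Both KO libraries lay between the WT libraries (two-sided exact permutation test, p = 1, where the smallest p possible is 0.333). Without Hsp90aa1 and Hsp90ab1, the sum was 7200 and 7124 CPM in KO and 6934 and 7076 CPM in WT. Both KO libraries were then slightly higher, at a log2 ratio of 0.032. Of the 85 genes, 69 passed the filter on low counts and were tested by quasi-likelihood in edgeR, with p-values adjusted by Benjamini-Hochberg over all 11464 tested genes. At an adjusted p under 0.05, 1 rose and 0 fell, which is 1.45% of the 69, beside 2.66% of all tested genes (1.45% rose and 1.21% fell). DESeq2 and limma-voom gave the same counts, and at an unadjusted p under 0.05, 5 members were higher and 5 lower in KO, or 14.5% against 13.5% of all genes. The median log2 fold change was -0.0066 over the 69 members and 0.00041 over all tested genes. KO libraries lay above WT libraries in 16 members (23.2%, against 21.5% of all genes) and below them in 14 (20.3%, against 21.9%).

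The spread allowed only small differences at the abundant members. The 95% interval of the log2 fold change lay within a 1.5-fold change in either direction for 42 of the 69 tested members (60.9%), against 47.4% of all tested genes. For the 25 members with a mean of at least 100 CPM this held for all 25, against 97.2% of 1881 genes at that level. The other members were lower, with 25 between 10 and 100 CPM, 17 between 1 and 10 CPM, 11 above 0 and under 1 CPM, and 7 with no count in any library. For 53 of the 69 (76.8%) it lay within a 2-fold change, against 72.3% of all tested genes.

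**Figure D1:**
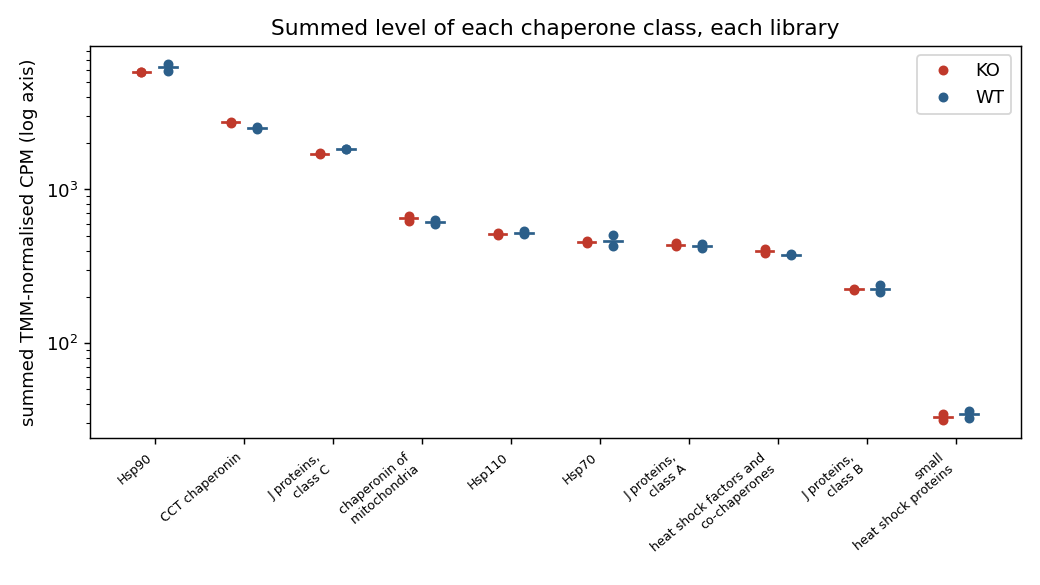
Summed TMM-normalised CPM of the members of each class (log axis), with a point per library and a bar at the mean of 2 libraries, KO left of WT. Hsp90 leads with 5828 CPM in KO and 6258 CPM in WT on average, and the CCT class is higher in both KO libraries (2750 and 2723 CPM) than in both WT libraries (2479 and 2548 CPM).

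Hsp90 made up the largest part of the chaperone mRNA. Hsp90ab1, the constitutive cytosolic Hsp90, had 4873 and 4866 CPM in KO and 5056 and 5564 CPM in WT. Both KO libraries lay below both WT libraries, which were themselves further apart. The log2 fold change was -0.12 (SE 0.0505), which did not pass the test (edgeR, adjusted p = 0.242), and its 95% interval was -0.23 to -0.022. Without WT replicate 1, Hsp90ab1 did pass, at -0.19 (adjusted p = 0.00659). Its share of the summed chaperone CPM was 37.4% and 37.6% in KO and 39.3% and 40.7% in WT. Hsp90aa1, the stress-inducible Hsp90, had 957 and 961 CPM in KO and 880 and 1015 CPM in WT. Here the KO libraries fell between the WT libraries, and the log2 fold change was 0.017 (SE 0.0671, adjusted p = 0.958). Of the last 300 bases of its transcripts, 37.6% of 50-base words also occur in other annotated genes, so part of its counts may belong elsewhere. Here and below, a word was counted as shared if it occurred on either strand, which reads counted by strand could in part separate.

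Among Hsp70 genes, the constitutive Hspa8 carried most of the mRNA and the heat-inducible genes were near the floor. Hspa8 had 348 and 345 CPM in KO and 315 and 380 CPM in WT. The KO values lay between the WT values, with a log2 fold change of -0.0021 (SE 0.0819, edgeR adjusted p = 0.996). Hspa8 is also uncertain, since 81.3% of the words in its transcript ends occur in 13 other annotated genes. Hspa1a had 16 and 6 counts in KO and 10 and 2 in WT, and Hspa1b 11 and 7 counts in KO and 7 and 6 in WT. The heat-inducible pair together thus had 27 and 13 counts in KO and 17 and 8 in WT, overlapping between genotypes. The coding parts of Hspa1a and Hspa1b are nearly the same, but the last 300 bases of their transcripts shared no 50-base word. Hspa1a was tested at 0.77 (SE 0.98, adjusted p = 0.814) and Hspa1b did not pass the filter. Hspa1l, a form known from testis, had 12 and 11 counts in KO and 2 and 6 in WT, with an adjusted p of 0.583.

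Hspa14, an Hsp70 that works at the ribosome, had 87.3 and 84.5 CPM in KO and 90.0 and 97.5 CPM in WT (log2 fold change -0.13, edgeR adjusted p = 0.695). Its J protein partner Dnajc2 had 236 and 222 CPM in KO and 245 and 231 CPM in WT, overlapping (-0.056, adjusted p = 0.851). The testis form Hspa2 and the microsomal Hspa13 were under 20 CPM in every library and overlapped between genotypes. Hspa12a had 0 counts in both KO libraries and 2 and 5 in WT, and Hspa12b had 0 in all 4.

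Of the Hsp110 exchange factors, Hspa4 was the most abundant, with 438 and 431 CPM in KO and 461 and 433 CPM in WT. Hsph1, a heat-inducible Hsp110 whose promoter is printed above, had 59.8 and 51.0 CPM in KO and 51.8 and 55.7 CPM in WT. Hspa4l had 24.9 and 23.7 CPM in KO and 24.8 and 22.4 CPM in WT. All 3 overlapped between genotypes, with log2 fold changes of -0.039 to 0.045 and edgeR adjusted p of 0.889 to 0.962. For comparison, KO lay above WT without overlap in 21.5% and below it in 21.9% of all tested genes.

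The 45 J proteins, which bring clients to Hsp70, had a summed level of 2372 and 2374 CPM in KO and 2478 and 2480 CPM in WT. Both KO sums were lower than both WT sums by more than the libraries of a genotype differed, although with 2 libraries each an exact permutation test cannot go below p = 0.333. None of the 39 tested J protein genes passed edgeR's test or was called by DESeq2 or limma-voom, where edgeR called 2.66% of all tested genes. An unadjusted p under 0.05 was found for 5 of class C (20.8%, against 13.5% of all tested genes) and 0 of classes A and B. In class A, the general Hsp70 partners Dnaja1 (136 and 135 CPM in KO, 134 and 148 CPM in WT) and Dnaja2 (262 and 251 CPM in KO, 246 and 251 CPM in WT) were at like levels. Dnaja1 shares 73.2% of the words in its transcript ends with other annotated genes. Dnaja3, which acts in mitochondria, had 38.0 and 33.7 CPM in KO and 28.1 and 32.1 CPM in WT (log2 fold change 0.25, SE 0.171, adjusted p = 0.571).

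In class B, Dnajb1, the stress-inducible partner of Hsp70, had 59.5 and 58.8 CPM in KO and 59.9 and 56.3 CPM in WT. The values overlapped, and the 95% interval of its log2 fold change was -0.24 to 0.29 (0.026, edgeR adjusted p = 0.966). Dnajb6, which restrains protein aggregation, had 81.1 and 89.1 CPM in KO and 90.1 and 82.9 CPM in WT, overlapping as well (-0.023, adjusted p = 0.966). In all 11 tested class B genes the libraries of the genotypes overlapped. Without overlap, KO lay above WT in 21.5% of all tested genes and below it in 21.9%. Dnajb11, in the endoplasmic reticulum, had 19.2 and 19.1 CPM in KO and 19.1 and 19.4 CPM in WT. Dnajb4 had 39 and 62 counts in KO and 65 and 48 in WT (-0.22, adjusted p = 0.895), and Dnajb5 had 85 and 81 counts in KO and 113 and 69 in WT (-0.20, adjusted p = 0.866). The other class B genes were lower than Dnajb1 and Dnajb6 as well, and Dnajb8 had 0 counts throughout. Dnajb3 took 32 of its counts from KO replicate 1 and 0 from KO replicate 2, against 9 and 11 in WT.

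Of the 24 tested class C genes, 16 had a negative log2 fold change, beside 5726 of all 11464 tested genes, and the median was -0.079. KO lay below WT in 8 and above it in 4, where 21.9% of all tested genes lay below and 21.5% above. No test was made of the class as a whole. Summed, the class had 1700 and 1723 CPM in KO and 1821 and 1827 CPM in WT. Dnajc8, a spliceosome-associated J protein and the most abundant of the class, had 314 and 301 CPM in KO and 356 and 352 CPM in WT. Both KO libraries were lower, at a log2 fold change of -0.20 (SE 0.0757), which did not pass (edgeR, adjusted p = 0.184). Dnajc3, an inhibitor of translation kinases in the endoplasmic reticulum, had 129 and 118 CPM in KO and 134 and 152 CPM in WT (-0.21, adjusted p = 0.351). Dnajc9, a co-chaperone for histones, had 111 and 117 CPM in KO and 132 and 127 CPM in WT (-0.18, adjusted p = 0.444).

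Most of the larger fold changes in class C were at low levels. Dnajc16 had 39 and 35 counts in KO and 23 and 16 in WT (log2 fold change 0.86, edgeR adjusted p = 0.581), and Dnajc12 had 37 and 25 counts in KO and 44 and 55 in WT (-0.73, adjusted p = 0.556). Dnajc30, a mitochondrial protein, had 59 and 70 counts in KO and 118 and 113 in WT, a log2 fold change of -0.89 (SE 0.308, edgeR adjusted p = 0.133). Dnajc19, a subunit of the motor that imports proteins into mitochondria, had 124 and 175 counts in KO and 181 and 230 in WT (-0.50, adjusted p = 0.324). Dnajc18 went the other way, with 192 and 164 counts in KO and 115 and 105 in WT (0.63, adjusted p = 0.205). These 5 genes, described for their large differences, did not overlap between genotypes, and none passed in the main test or in any alternative in which it was tested. Over all tested genes, KO lay above WT in 21.5% and below in 21.9%. Dnajc30 overlaps Bud23 and Dnajc19 overlaps Fxr1, each on the other strand. Dnajc7 (177 and 201 CPM in KO, 187 and 202 CPM in WT), which binds both Hsp70 and Hsp90, and the ribosome biogenesis factor Dnajc21 (152 and 153 CPM in KO, 169 and 153 CPM in WT) overlapped.

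**Figure D2:**
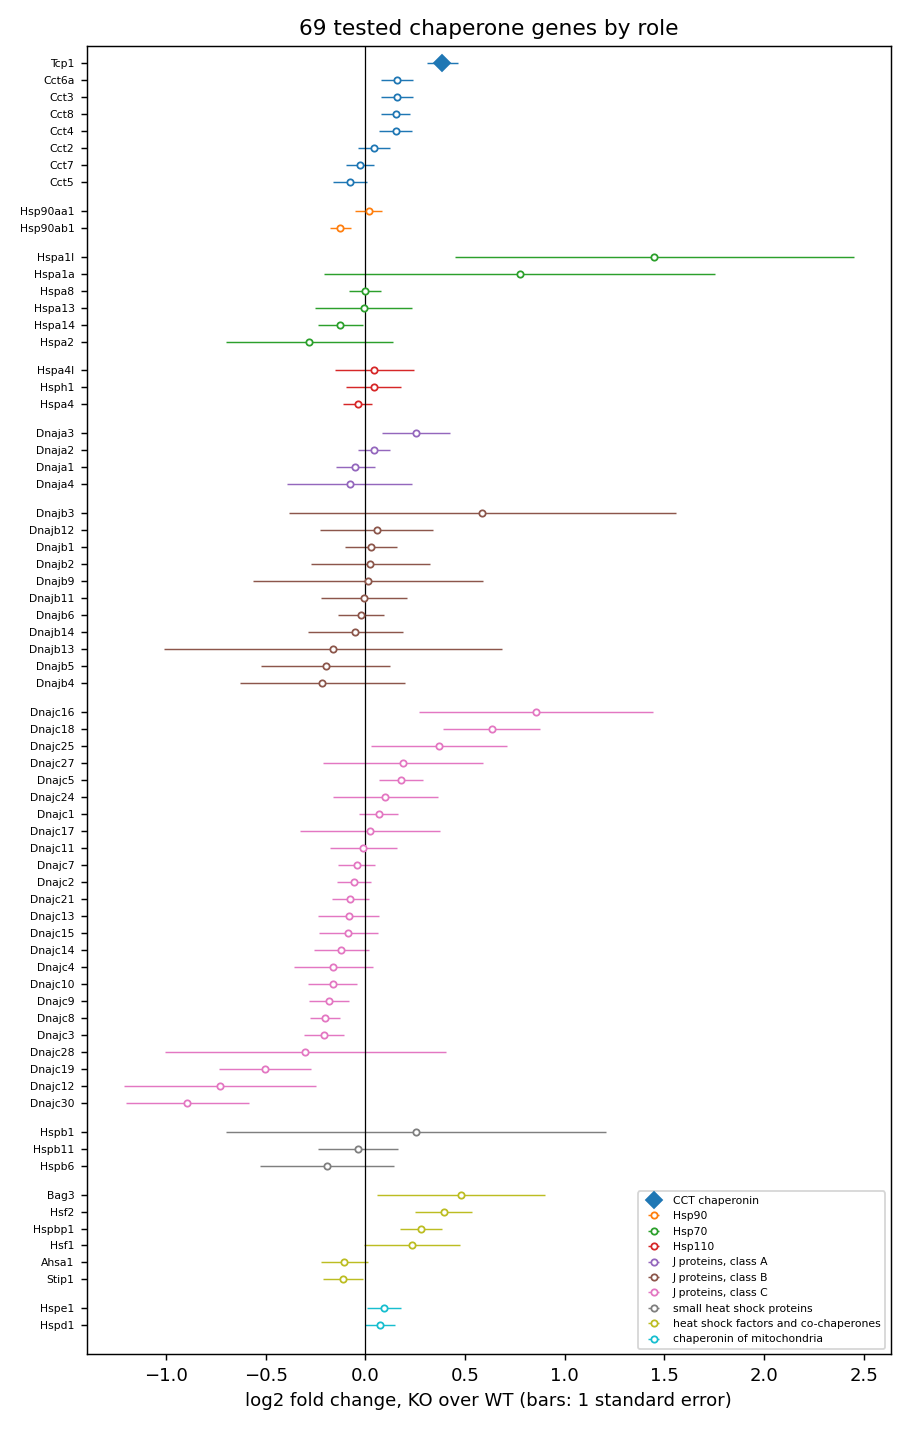
Log2 fold change (KO over WT) of the 69 tested chaperone genes, grouped by role, with bars of 1 standard error; the filled diamond has an adjusted p under 0.05 and open circles do not. Tcp1 at 0.39 is the only filled marker, and the values far from 0, such as Hspa1l at 1.45, belong to low genes with wide bars.

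Both heat shock factors were expressed and neither passed the test. Hsf1, the main activator of the stress response, had 18.9 and 16.5 CPM in KO and 17.2 and 13.0 CPM in WT, which overlapped (log2 fold change 0.24, SE 0.24, edgeR adjusted p = 0.744). Hsf2, a related factor of development and differentiation, had 53.0 and 56.0 CPM in KO and 42.7 and 40.3 CPM in WT. Both KO libraries were higher, at 0.39 (SE 0.142, adjusted p = 0.164), and in the 13 alternatives the adjusted p lay between 0.132 and 0.514. The 16 tested genes whose promoter windows held a 2-unit motif had a median log2 fold change of 0.043 with 0 called. The 41 tested genes with windows that lacked it had a median of -0.025 with 1 called. Of all tested genes 2.66% were called, so 0 and 1 calls in groups this small do not tell the groups apart. The abundant Hsp90aa1, Hsp90ab1 and Hspa8 had no window and are in neither group. The 4 genes with a 3-unit motif, as printed for Hspe1 and Hsph1, lay between -0.023 and 0.093.

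Of the co-chaperones, Hspbp1, an exchange factor of Hsp70, had 116 and 130 CPM in KO and 103 and 99.7 CPM in WT. Both KO values were higher, at a log2 fold change of 0.28 (SE 0.105), which did not pass (edgeR, adjusted p = 0.188). Stip1 had 114 and 124 CPM in KO and 129 and 129 CPM in WT (-0.11, adjusted p = 0.691). Ahsa1 had 78.0 and 77.6 CPM in KO and 81.1 and 86.2 CPM in WT (-0.10, adjusted p = 0.774), and 35.5% of the words in its transcript ends occur in another annotated gene. Bag3, a stress-induced link between Hsp70 and autophagy, was low, with 57 and 62 counts in KO and 44 and 38 in WT (0.48, SE 0.42, adjusted p = 0.691). The KO and WT libraries did not overlap in these 4 genes, with Hspbp1 and Bag3 higher and Stip1 and Ahsa1 lower in KO. Such a gap was common, since KO lay above WT in 21.5% and below it in 21.9% of all tested genes.

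Small heat shock proteins, which hold unfolded proteins without ATP, were scarce. Of 8 genes, 3 had no count in any library and 3 were tested. Hspb1, the stress-induced member, had 14 and 5 counts in KO and 11 and 4 in WT (edgeR adjusted p = 0.956). Hspb11, a subunit of the intraflagellar transport machinery, had 26.4 and 21.2 CPM in KO and 24.5 and 24.3 CPM in WT. Hspb6 had 6.23 and 9.46 CPM in KO and 10.1 and 7.81 CPM in WT. All 3 tested genes overlapped between the genotypes. Of all tested genes, 21.5% had KO above WT and 21.9% had KO below it without overlap.

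The mitochondrial chaperonin genes, which the choice by symbol included, were at like levels. Hspd1 (Hsp60) had 442 and 398 CPM in KO and 390 and 408 CPM in WT, and Hspe1 (Hsp10), its lid, 228 and 229 CPM in KO and 209 and 220 CPM in WT. Their log2 fold changes were 0.074 (SE 0.0751) and 0.093 (SE 0.084), with edgeR adjusted p of 0.744 and 0.699. The ratio of Hspd1 to Hspe1, whose 5′ ends overlap, was 1.94 and 1.73 in KO and 1.87 and 1.85 in WT. Both share words of their transcript ends with other annotated genes, 39.2% for Hspd1 and 43.8% for Hspe1.

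CCT is built of rings with 8 different subunits, and their genes were among the most abundant members. The sum of the CCT genes was 2750 and 2723 CPM in KO and 2479 and 2548 CPM in WT, with both KO libraries higher. Without Tcp1, the other 7 subunits summed to 2346 and 2313 CPM in KO and 2181 and 2223 CPM in WT. With 2 libraries each, an exact permutation test of such sums cannot go below p = 0.333. Tcp1, which encodes the alpha subunit, had 404 and 410 CPM in KO and 297 and 325 CPM in WT. The WT libraries lay well below both KO libraries, and Tcp1 rose by 1.31-fold (log2 fold change 0.39, SE 0.076, edgeR adjusted p = 0.00195, 95% interval 0.23 to 0.54). It passed in each of the 13 alternatives, at 0.32 to 0.45 (adjusted p between 0.000117 and 0.0358).

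The other 7 subunits did not pass. KO lay above WT in 5 of them and below in 2, where 21.5% of all tested genes lay above and 21.9% below. Cct8 (470 and 466 CPM in KO, 411 and 432 CPM in WT), Cct3 (292 and 299 CPM in KO, 258 and 271 CPM in WT) and Cct6a (289 and 303 CPM in KO, 259 and 271 CPM in WT) were higher in both KO libraries. Their log2 fold changes were 0.15 to 0.16, with edgeR adjusted p of 0.345 to 0.382. Cct4, with 332 and 290 CPM in KO and 287 and 273 CPM in WT, was at 0.15 (adjusted p = 0.43), and Cct2 at 0.043 (0.889). Cct7 (479 and 484 CPM in KO, 484 and 495 CPM in WT) and Cct5 (210 and 199 CPM in KO, 218 and 214 CPM in WT) were slightly lower in KO, at -0.025 and -0.077. Within a library, Cct7 had the highest and Cct5 the lowest level of the 8 in all 4 libraries. The ratio of Tcp1 to the mean of the other 7 was 1.20 and 1.24 in KO and 0.954 and 1.02 in WT. The testis form Cct6b had 2 counts, both in WT replicate 2, and Cct8l1 had none.

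**Figure D3:**
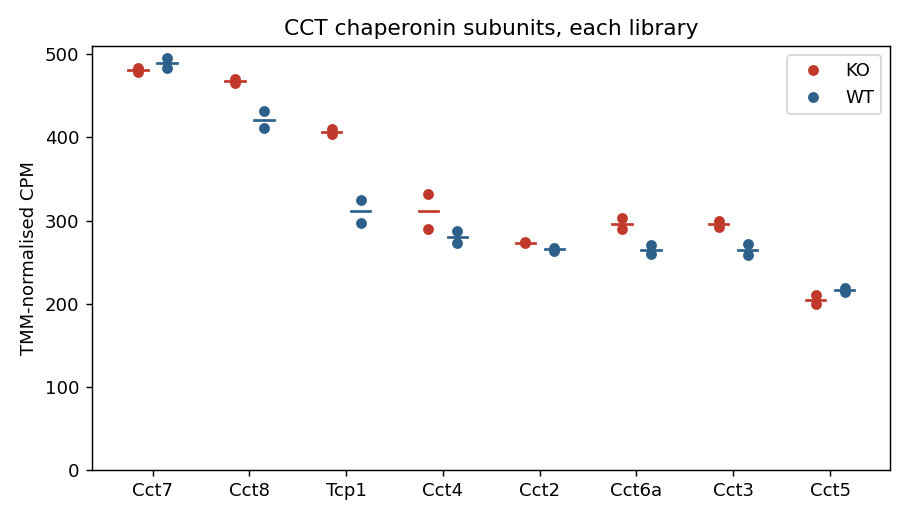
TMM-normalised CPM of the 8 CCT subunit genes in each library, ordered by their WT mean, with KO left of WT and a bar at the mean of 2 libraries. Tcp1 shows the widest gap, with KO at 404 and 410 CPM and WT at 297 and 325 CPM, while Cct7 and Cct5 are slightly lower in KO.

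If strand was not used in counting, part of the counts of Tcp1 may belong to its neighbour. On GRCm38, Tcp1 spans chr17:12915701-12925067 on the plus strand and Acat3, a thiolase gene of acetyl-CoA metabolism, chr17:12923813-12940600 on the minus strand. The 3′ ends thus overlap by 1255 bases, where 3′ reads are expected, and the use of strand in counting is not given in the sources used here. Of the words in the last 300 bases of the coding transcripts of Tcp1, 29.2% also occur, on either strand, in other annotated genes. Acat3, which lies on the other strand, shares the most. Acat3 had 3248 and 3039 counts in KO and 2108 and 2505 in WT. It rose by 0.39 on the log2 scale (SE 0.0797, edgeR adjusted p = 0.00258), much as Tcp1 did. The ratio of Tcp1 to Acat3 counts was 1.22 and 1.24 in KO and 1.24 and 1.23 in WT, so it was nearly constant over the 4 libraries.

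The genes next along the chromosome on that side also rose. They were looked at, as was Acat3, after the value of Tcp1 was seen. Acat2, a related thiolase gene that does not overlap Tcp1, had 1954 and 1972 counts in KO and 1239 and 1540 in WT (log2 fold change 0.45, SE 0.0931, edgeR adjusted p = 0.00327). Wtap, a subunit of the RNA m6A methyltransferase complex, had 896 and 885 counts in KO and 633 and 643 in WT (0.43, SE 0.116, adjusted p = 0.0377). In all, 3 of the 7 other tested genes within 500 kb of Tcp1 rose and 0 fell, beside 1.45% and 1.21% of all genes. Mrpl18, which overlaps the 5′ end of Tcp1, was at -0.15 (adjusted p = 0.592), and Sod2, on the far side of Wtap, at -0.074 (0.875). On the other side of Tcp1, Airn had 34 and 43 counts in KO and 62 and 38 in WT (-0.44, adjusted p = 0.76). Igf2r, on that side too, was at 0.13 (0.802). Acat3 was called in all 13 alternatives. Acat2 lost its call without WT replicate 1 (adjusted p = 0.068) and without KO replicate 2 (0.0789). Wtap lost its call in 7 of 13, among them on leaving out each library in turn (adjusted p between 0.0725 and 0.263). The part of these neighbours in the rise of Tcp1 was not tested.

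**Figure D4:**
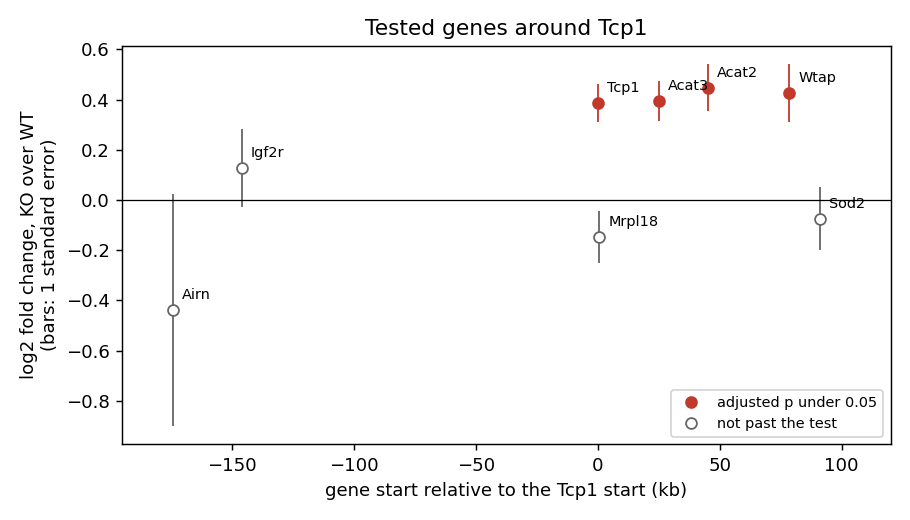
Log2 fold change (KO over WT, bars of 1 standard error) of the 8 tested genes within 500 kb of Tcp1, against the distance of each gene's start from the Tcp1 start in kb. Tcp1, Acat3, Acat2 and Wtap sit between 0.39 and 0.45, while Mrpl18, whose start lies just beside that of Tcp1, and Sod2, farthest to the right, lie slightly below 0. To the left, Airn lies at -0.44 and Igf2r at 0.13, and neither passed the test.

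Genes of the folding machinery outside the 85 gave 1 more call among partners of CCT and none among partners of Hsp90 and Hsp70. They were taken from lists written from general knowledge, with earlier results of these data known. Prefoldin delivers actin and tubulin to CCT, and its subunit gene Pfdn5 had the lowest p of 14 prefoldin, phosducin-like and tubulin cofactor genes. Pfdn5 fell by 0.44 on the log2 scale (SE 0.0887, edgeR adjusted p = 0.00261), to 155 ± 2.73 CPM in KO against 210 ± 7.53 CPM in WT (SD, n = 2 each), and kept its call in all 13 alternatives. The other 13 did not pass, among them Tbcb (-0.23, adjusted p = 0.557), and the median of the list was -0.07. The other prefoldin subunit genes were Pfdn4 (-0.19), Pfdn1 (-0.14), Vbp1 (-0.12), Pfdn6 (-0.003) and Pfdn2 (0.04). Of the 14 genes, 9 had a negative and 5 a positive log2 fold change. KO lay below WT in 4 and above it in 1, against 21.9% and 21.5% of all tested genes. The list summed to 920 and 891 CPM in KO and 970 and 1013 CPM in WT. Of 24 Hsp90 co-chaperones, 0 rose and 0 fell (edgeR, and also DESeq2 and limma-voom), where edgeR called 2.66% of all tested genes. An unadjusted p under 0.05 was found for 2 of them (8.33%, against 13.5% of all tested genes), and the median was -0.0099. Fkbp8, which anchors at the mitochondrial surface, was at -0.27 (adjusted p = 0.253). Of 15 Hsp70 co-chaperones, 0 passed by edgeR, DESeq2 or limma-voom and 0 had an unadjusted p under 0.05, with a median of 0.041, and the lowest p belonged to Tomm70a (0.18, adjusted p = 0.422) and Stub1 (0.18, 0.599).

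Other genes tied to the heat shock response were mostly flat or low. Of 10 tested, Rgs2, a regulator of G protein signalling, rose by 0.46 on the log2 scale (SE 0.102, edgeR adjusted p = 0.00617), and 9 did not pass. Rgs2 was not called without WT replicate 2 (adjusted p = 0.122) or without KO replicate 2 (0.0786). Hsbp1, which binds and restrains Hsf1, was at -0.27 (adjusted p = 0.184) and the metallothionein Mt2 at 1.09 (0.399). Among 11 tested immediate-early genes that respond to handling, Ier3 fell (-0.58, adjusted p = 0.0204) and 10 did not pass. Of the 11, 4 had an unadjusted p under 0.05 (36.4%, against 13.5% of all tested genes), and 3 of them were higher in KO, namely Dusp1 (0.68, adjusted p = 0.128), Junb (0.17, 0.257) and Jund (0.18, 0.289). KO lay above WT in 4 and below in 5 of the list, where 21.5% of all tested genes lay above and 21.9% below. The summed level was 1538 and 1518 CPM in KO and 1441 and 1451 CPM in WT. Ier3 was not called without WT replicate 2 (0.192), without KO replicate 2 (0.315) or with DESeq2 (0.0611). Of the 4 genes left out of the 85, the endoplasmic reticulum Hsp90 gene Hsp90b1 fell (-0.27, adjusted p = 0.036). Its call was lost with scaling by library size only (0.0668) and on leaving out each library in turn (adjusted p between 0.0648 and 0.256).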

How the data were processed

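For each library the authors deposited raw counts of reads, listed by gene symbol, per the file headers. Bowtie2, edgeR and the mm10 build are named in the submitters' processing notes without role or version. How reads were counted (tool, annotation, strand, reads with several matches) is not given in the sources used here. Libraries took 500 ng of total RNA, per the labels' protocols.

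The tables held 23282 rows, and rows sharing 1 of 35 repeated symbols were added up. Genes passing filterByExpr (11464) entered edgeR 4.0.16 (R 4.3.3), with TMM scaling, genotype as the only term and a quasi-likelihood F test, which is two-sided. "Rose" and "fell" mean an adjusted p under 0.05. The standard error was the log2 fold change divided by the square root of F, and 95% intervals used the test's degrees of freedom. Alternatives used DESeq2 1.42.0 and limma 3.58.1, other scalings and filters, the replicate number, and each library left out. A floor of 3 counts equalled 0.307 to 0.341 CPM, for counting error only. Gene positions and transcript ends were taken from GENCODE vM21 on GRCm38, which mm10 names, and matched by symbol.

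The members and lists were chosen with earlier results of these data known. The rule for names took all called members, the well-known heat shock genes, the 3 of smallest p and the 3 most abundant of each role, and the called or 2 lowest-p genes of each list, of which the cell markers are mostly given as counts. Other members are named for their role after their values were seen, as are some listed genes, such as the other prefoldin subunits. Some listed genes outside the members are not reported here by name.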

Additional observations from a re-analysis of the deposited data

How the results depend on the processing

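Tcp1 was the only member called upward in each of the 13 alternatives. Members called downward numbered 0 in each, except that Hsp90ab1 was called without WT replicate 1, so that the count ranged from 0 to 1 as single libraries were left out. The median log2 fold change of the members ranged from -0.0133 to 0.0509 when 1 library was left out, the highest without KO replicate 2, and from -0.0182 to 0.0153 under the other alternatives. The log2 ratio of their summed level was -0.03 with all libraries, and ranged from -0.0722 (without WT replicate 1) to 0.0114 (without WT replicate 2) over the alternatives. Genes called over the whole table numbered 305, and 170 (without KO replicate 1) to 293 when 1 library was left out, with 184 without WT replicate 2. The cause was not tested. With 1 library left in a genotype, it is assumed to vary like those of the other.

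With the replicate number as a block, 260 genes were called, among them 1 member, Tcp1. The numbers are not known to mark a shared animal or day, and the differences between replicates 1 and 2 of KO and of WT had a correlation of 0.0028 over 11464 genes. Depth limits the 16 members that were not tested and the low members, such as Hspa1a and Dnajc30, whose intervals are wide.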
